A study of Mus musculus with 9 samples.

Results

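The FGF ligand genes described here are 10 members of the fibroblast growth factor family, Fgf2, Fgf3, Fgf7, Fgf8, Fgf9, Fgf10, Fgf15, Fgf17, Fgf18 and Fgf20, taken by symbol from the 54532 genes of the deposited count table. Each symbol occurred once in the table, and all 10 genes had reads in every library. RNA came from the lambdoidal junction of C57BL/6J mouse embryos, the place where the maxillary prominence joins the 2 nasal prominences, medial and lateral, as the upper lip and primary palate form. Embryos were taken at E10.5, at E11.5 or at E12.5, untreated and with no mutant allele named, and 3 libraries were sequenced per stage. Each library came from the pooled tissue of many embryos, so the p-values measure the spread between pools and not between single embryos. Epithelium and mesenchyme were not separated. In such bulk tissue, fewer cells of a type and less RNA per cell cannot be told apart.

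FGFs are secreted proteins that bind receptor tyrosine kinases (Fgfr1, Fgfr2, Fgfr3 and Fgfr4) together with heparan sulphate, and activate ERK signalling in the receiving cell. In the embryonic face several are made by the ectoderm around the nasal pits and act on the mesenchyme beneath, while Fgf7 and Fgf10 are made mainly by mesenchyme and act on epithelial receptor isoforms. By sequence the family falls into subfamilies. Fgf8, Fgf17 and Fgf18 form one, Fgf3, Fgf7 and Fgf10 belong to another, and Fgf9 and Fgf20 to another again. Fgf2 pairs with Fgf1, and Fgf15 belongs to the hormone-like group.

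Relative to exon length, the ligand make-up of the tissue changed over the 3 stages from one led by Fgf8 to one led by Fgf10. Fgf8 and Fgf15 fell from E10.5 to E12.5, Fgf2 rose, Fgf18 fell and then rose, and Fgf17 fell after E11.5. Fgf7 and Fgf20 were higher at E12.5, but they passed a filter on low counts only through the libraries of that stage. For Fgf3, Fgf9 and Fgf10 no comparison passed both thresholds. Among the ligands that rose after E11.5, Fgf7 and Fgf18 are those for which the RefSeq start site in GRCm38.p6 coincides with the gene start of the count table, and the 250 bases before that site are shown for them. Capitals mark matches, on either strand, to 3 common promoter motifs, the TATA box (TATAAA), the CCAAT box (CCAAT) and the GC box (GGGCGG), which do not overlap one another in these windows. Both sequences run 5′ to 3′ on the strand of the gene. The Fgf7 window is at chr2:126034408-126034657 (plus strand) and the Fgf18 window at chr11:33147401-33147650 (minus strand).
Fgf7: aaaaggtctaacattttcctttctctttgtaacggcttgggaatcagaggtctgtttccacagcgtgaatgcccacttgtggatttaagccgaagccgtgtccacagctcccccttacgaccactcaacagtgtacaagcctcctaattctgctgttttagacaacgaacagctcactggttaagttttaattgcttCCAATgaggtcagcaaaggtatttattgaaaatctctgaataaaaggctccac
Fgf18: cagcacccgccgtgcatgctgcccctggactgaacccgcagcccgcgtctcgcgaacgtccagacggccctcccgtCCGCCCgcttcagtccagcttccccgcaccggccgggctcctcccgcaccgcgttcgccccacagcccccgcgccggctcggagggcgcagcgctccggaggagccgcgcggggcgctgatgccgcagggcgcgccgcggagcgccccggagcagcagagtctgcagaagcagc

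The Fgf7 window holds 1 CCAAT box and no other match, and 43.6% of its bases are G or C. The Fgf18 window holds 1 GC box, and 77.2% of its bases are G or C. Of 32851 promoter windows of the same length in the RefSeq table, 33.8% hold a CCAAT box, 32.7% a GC box and 12.4% a TATA box, so each of the matches is common. No motif was found in both windows.

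Depth was 16581009–20836804 counts per library. Levels are CPM, a gene's counts after scaling each library to 1000000 counts, with library sizes adjusted by TMM, edgeR's default normalization. Each pair of stages was tested on its 6 libraries with edgeR's quasi-likelihood method over all genes that passed a filter on low counts, and the adjusted p-values given for single genes are Benjamini-Hochberg values from edgeR over all of those genes. A gene was called when the adjusted p-value was at most 0.05 and the absolute log2 fold change at least 1. With 3 libraries on each side the smallest p an exact permutation test can reach is 0.1, so the calls rest on the spread that edgeR estimated over all genes. E10.5 replicate 3 stood apart from the other E10.5 libraries. The SD over genes of its log2 difference from them was 0.711 and 0.703, against 0.393 between the other two and 0.373–0.591 between libraries of the later stages, and its differences followed GC content (Spearman's rho −0.52 and −0.54 across genes, which are not independent). Its summed level of 10 surface epithelium markers was 1040 CPM against 570 and 648, that of 10 facial mesenchyme markers 1243 against 2001 and 2018, and that of 6 endothelial markers 95.6 against 289 and 283.

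The labelled tissue was checked against its markers. The mesenchyme list (Prrx1, Twist1, Alx1, Msx1 and others) summed to 1243–2018 CPM in the E10.5 libraries, against 2761–2964 in those of E11.5 and 2806–3158 in those of E12.5. Of its 10 genes, 3 were called higher and 0 lower in the first interval, 0 were called in the second, and 4 were higher and 1 lower over the whole span. The part of this list's change in the levels of Fgf2 and of the mesenchymal ligands Fgf7 and Fgf10 was not tested. The surface epithelium list (Cdh1, Epcam, Trp63 and others) summed to 526–1040 CPM, with 1 of its 10 genes lower in each comparison against E10.5, and no gene of these or the other marker lists was at 0 throughout. A list of 14 forebrain markers (Emx2, Sox1, Sox2, Nkx2-1 and others) summed to 460–614 CPM in the E10.5 libraries, against 126–146 in those of E11.5 and 158–204 in those of E12.5. Of its genes, 10 were called lower in E11.5 vs. E10.5, and the number was also 10 over the whole span. A list of 7 eye field markers (Rax, Six6, Vax1 and others) summed to 78.1–132 CPM at E10.5 and to 34.6–43.7 CPM in the later libraries, with 5 and 6 genes lower in the same comparisons. Lists for olfactory neurogenesis, neurons, skeletal muscle, endothelium, erythroid cells and macrophages had 0 or 1 gene called in either direction in each comparison. Some forebrain markers, such as Sox2, are also known from the nasal placode. Fgf8, Fgf15 and Fgf17 are known to be made in the embryonic forebrain as well as the face, and the part of the forebrain and eye tissue in their changes was not tested.

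**Figure D1:**
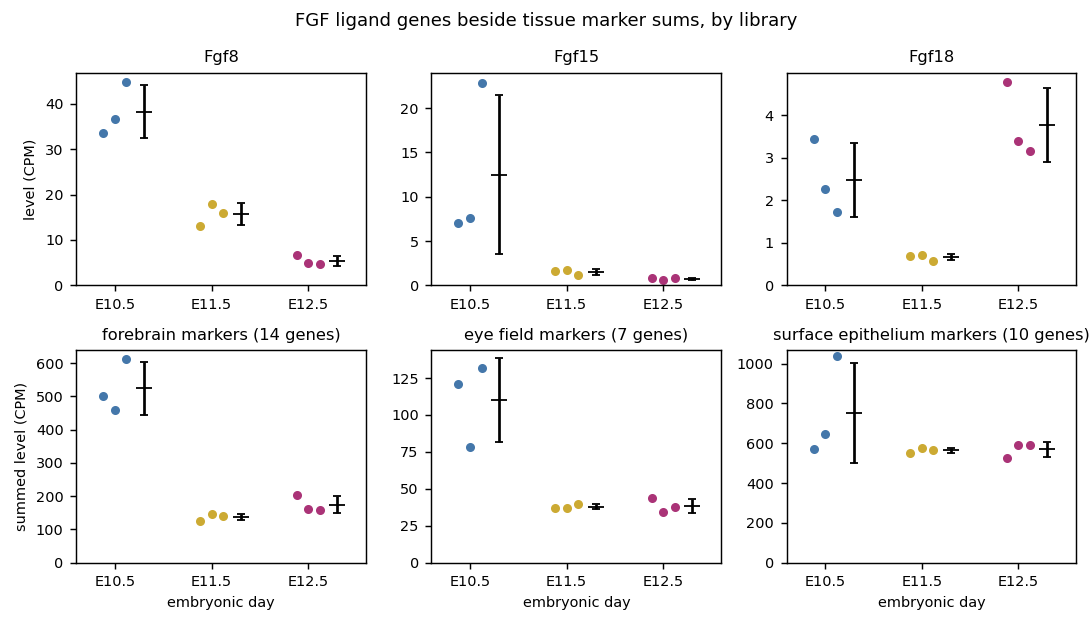
Level of Fgf8, Fgf15 and Fgf18 (upper row, CPM) and summed level of 3 marker lists (lower row, CPM) in the 3 libraries of each stage (points, in replicate order), with the mean and SD of the stage beside them. The forebrain sum is 460–614 CPM in the first stage and 126–204 CPM in the later libraries. Fgf8 falls at both steps, and Fgf18 dips at E11.5. The part of the marked tissues in the levels of these genes was not tested.

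Relative to transcript length, Fgf8 was the leading ligand at the first 2 stages and Fgf10 at the last. In CPM, without regard to length, Fgf10 was already above Fgf8 at E11.5 (means of 23.2 and 15.7). On the scale of CPM per kb of exon, Fgf8 was at 28.4 ± 4.28 at E10.5 (mean ± SD, n = 3 libraries), then 11.6 ± 1.83 a day later, and finally 3.998 ± 0.799. Fgf10 was at 3.75 ± 1.06, 5.04 ± 0.824 and 6.30 ± 0.334 CPM per kb at the 3 stages. At E10.5, Fgf17, Fgf15, Fgf10, Fgf9 and Fgf18 followed Fgf8 at means of 4.26–2.09 CPM per kb, and each neighbour in this order overlapped the next. Fgf2 (0.442), Fgf3, Fgf20 and Fgf7 (0.0685) were lower, again with neighbours that overlapped. At E11.5 the order was Fgf8, Fgf10, Fgf17, Fgf9, Fgf2, Fgf18, Fgf15, Fgf3, Fgf20 and Fgf7, in which Fgf10 and Fgf17 overlapped, as did Fgf18 and Fgf15, and Fgf3, Fgf20 and Fgf7 in turn. At E12.5, Fgf10 lay above all the others. Fgf8, Fgf18 and Fgf2 (2.83 CPM per kb) came next and overlapped in turn, then Fgf9 and Fgf17, which overlapped, and then Fgf20 (0.724), Fgf7, Fgf15 and Fgf3 (0.205), which overlapped in turn.

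The summed level of the 10 ligands was 46.1 ± 8.97 CPM per kb in the first stage, 27.1 ± 1.34 in the second and 22.2 ± 1.86 in the last, and on this scale the stages did not overlap. Summed as CPM, without regard to length, the 10 genes stood at 76.9, 83.0 and 121.6 in the first stage, 74.1, 66.8 and 75.6 in the second and 76.9, 74.9 and 72.8 in the last. On that scale the stages overlapped apart from the first against the second, and the high value was that of E10.5 replicate 3. Of the summed CPM per kb, Fgf8 made up 61.9% ± 3.003 at E10.5, 42.9% ± 5.48 a day later and 17.9% ± 2.03 in the E12.5 libraries. The share of Fgf10 was 8.06% ± 0.936, 18.6% ± 3.13 and 28.5% ± 3.70. That of Fgf2 went from 1.01% ± 0.428 through 5.99% ± 1.85 to 12.8% ± 2.25, and that of Fgf18 from 4.79% ± 2.33 through 2.08% ± 0.309 to 14.2% ± 2.09. The ranges of the E10.5 and E12.5 libraries did not overlap for any of these 4 shares. These shares rest on the exon lengths of the table and on all isoforms together. A share also grows when the sum shrinks, as it did here, and neither Fgf10 nor Fgf18 was called over the whole span.

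**Figure D2:**
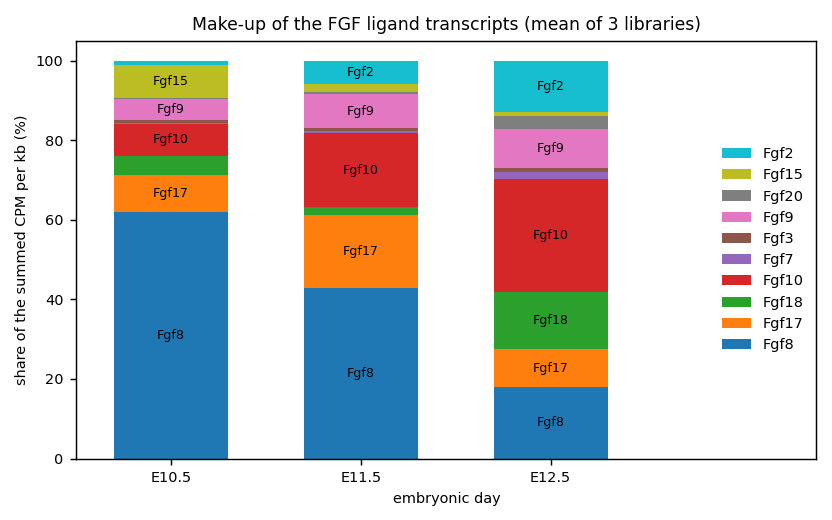
Mean share of each of the 10 genes in their summed CPM per kb at each stage, in percent (stacked bars, mean of 3 libraries). The part of Fgf8 shrinks from 61.9% to 17.9%, and those of Fgf10, Fgf18 and Fgf2 are larger at E12.5 than at either earlier stage.

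In E11.5 vs. E10.5, 1 of the 8 ligands tested was called higher (Fgf2) and 3 were called lower (Fgf8, Fgf15 and Fgf18). Over all 15708 genes tested, 3.46% were called higher and 2.61% lower. Fgf7 and Fgf20 passed the filter on low counts only through the E12.5 libraries, in which they were high, so their calls in the other comparisons were set by the filter and are left out of the counts read against all genes. Of the other 7 ligands tested in E12.5 vs. E11.5, 1 was higher (Fgf18) and 2 were lower (Fgf8 and Fgf17), against 4.14% and 0.962% of all genes. Of the other 8 in E12.5 vs. E10.5, 1 was higher (Fgf2) and 2 were lower (Fgf8 and Fgf15), against 9.97% and 5.08% of all genes. With Fgf7 and Fgf20 the number higher was 3 in each. The 3 ligands lower in the first interval became 1 without E11.5 replicate 1 or 3, and the 3 higher in the second became 1 without E11.5 replicate 2 or 3 or E12.5 replicate 1, while without E10.5 replicate 3 the numbers against E10.5 stayed at 1 higher and 3 lower, then 3 higher and 2 lower. When the test was made against the fold-change threshold itself (edgeR's glmTreat), 4 of the 14 calls were left, the rise of Fgf18 after E11.5 and the changes of Fgf2, Fgf8 and Fgf15 over the whole span. The comparisons share libraries in pairs and are not independent. As a description, the median log2 fold change of the 8 ligands tested in E11.5 vs. E10.5 was −0.52, Fgf3 with its low counts included. That of all genes tested was −0.032. No median is given for the other comparisons, where Fgf7 and Fgf20 would enter it through the filter.

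**Figure D3:**
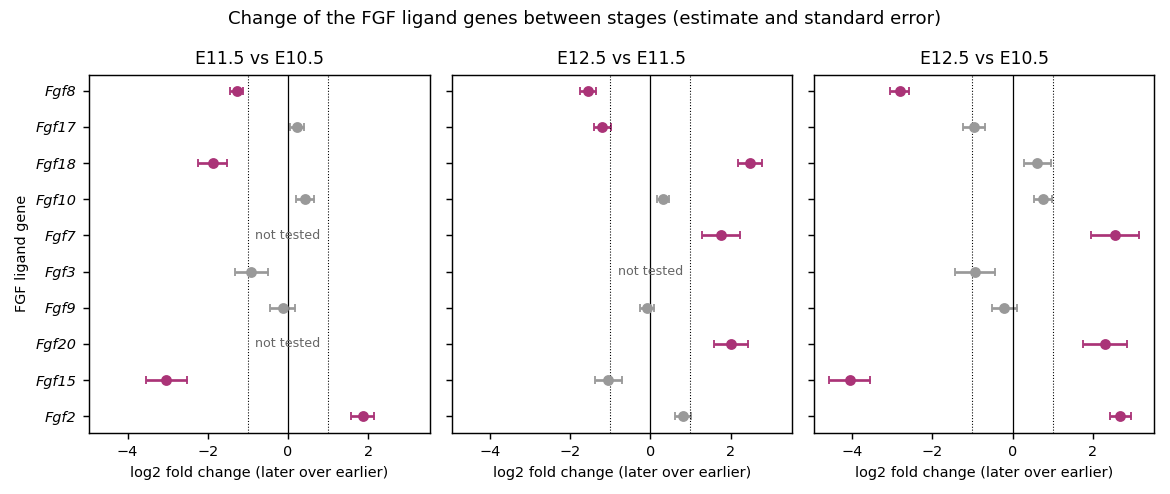
Log2 fold change (later over earlier stage) of each gene with its standard error (bars) in the 3 comparisons of 2 stages. Coloured points were called, grey points were not, dotted lines mark a log2 fold change of 1 in either direction, and genes filtered out for low counts are marked as not tested. Fgf8 lies left of the line in all 3 panels, and Fgf18 changes sides between the first and the second.

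The 3 genes of the Fgf8 subfamily, whose proteins are close relatives with the same receptor preference, took different courses. Fgf8 (ENSMUSG00000025219, chromosome 19, 45736798–45742915, minus strand, GRCm38) is a signal of the nasal pit and oral ectoderm on which survival and growth of the facial mesenchyme depend. It was at 33.6, 36.6 and 44.7 CPM in the E10.5 libraries, 13.1, 18.0 and 16.0 in the E11.5 libraries and 6.64, 4.85 and 4.71 in the E12.5 libraries. The libraries of each stage lay below all those of the stage before. Fgf8 fell 2.43-fold from E10.5 to E11.5 (log2 fold change −1.28, standard error 0.17, adjusted p 0.00381 by edgeR) and 2.92-fold from E11.5 to E12.5 (−1.55, standard error 0.20, adjusted p 6.69e-04 by edgeR). From E10.5 to E12.5 the fall was 7.05-fold (−2.82, standard error 0.23). The call held in all fits that left out 1 library, in each of the 3 comparisons, and without E10.5 replicate 3 the first fall was −1.15. In E12.5 vs. E11.5, 9 of the 14 forebrain markers were tested, of which 0 were called lower and 1 was called higher. The others were filtered out for low counts and could not be called. The part of the forebrain in the fall of Fgf8 was not tested.

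Fgf17 (ENSMUSG00000022101, chromosome 14, 70636203–70642268, minus strand) is best known from the midbrain and the frontal forebrain. Its libraries were at 7.95, 6.20 and 7.43 CPM at E10.5, 7.36, 8.46 and 9.26 at E11.5, and 4.45, 2.85 and 3.69 at E12.5. The first 2 stages overlapped (log2 fold change 0.22, standard error 0.18), whereas all E12.5 libraries lay below all earlier ones. It fell 2.29-fold from E11.5 to E12.5 (−1.20, standard error 0.21, adjusted p 0.00482 by edgeR). Over the whole span its log2 fold change of −0.96 (standard error 0.27, adjusted p 0.0235 by edgeR) just missed the fold-change threshold, which it passed without E10.5 replicate 2 (−1.07), without E12.5 replicate 1 (−1.13) and with the GC trend of the libraries removed (−1.09).

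Fgf18 (ENSMUSG00000057967, chromosome 11, 33117430–33147400, minus strand), known for its role in growth of skull bones, cartilage and palate, had its lowest level at E11.5. Its counts were 58, 39 and 28 at E10.5, 13, 15 and 11 at E11.5 and 85, 63 and 53 at E12.5, which are 3.44, 2.26 and 1.73 CPM, then 0.699, 0.721 and 0.579 CPM, then 4.78, 3.39 and 3.16 CPM. All E11.5 libraries lay below all libraries of the other stages. The fall of 3.68-fold had a log2 fold change of −1.88 (standard error 0.36, adjusted p 0.0145 by edgeR), and the rise of 5.60-fold one of 2.48 (standard error 0.30, adjusted p 5.30e-04 by edgeR). The rise was called under each of the 16 alternatives run. The call of the fall was lost without E11.5 replicate 1, 2 or 3 (adjusted p 0.0774, 0.0578 and 0.083 by edgeR), at log2 fold changes of −1.91, −1.94 and −1.79. The fall was −2.08 when E10.5 replicate 3 was left out. E10.5 and E12.5 overlapped, and their difference was not called (0.61, standard error 0.34, adjusted p 0.215 by edgeR).

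**Figure D4:**
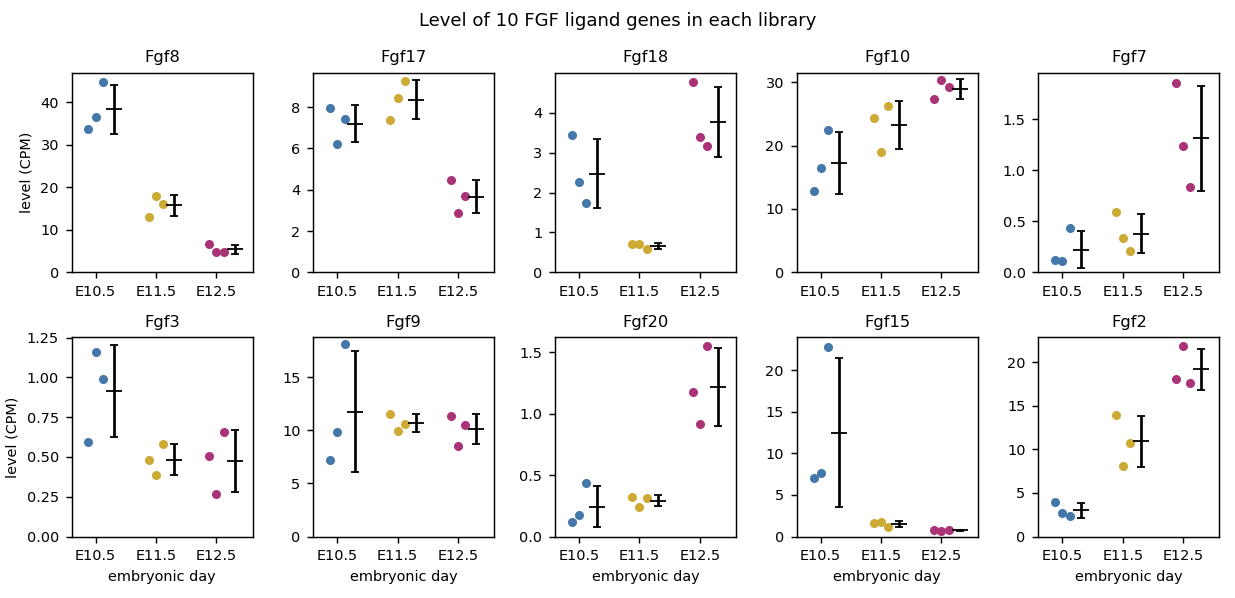
Level of each of the 10 genes in CPM (vertical axis, from 0, scaled per gene) in the 3 libraries of each stage (points, in replicate order), with mean and SD beside them. Fgf8 and Fgf2 move in opposite directions at both steps, Fgf18 dips at E11.5, and for Fgf9 and Fgf15 one E10.5 library lies far above the others.

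Of the Fgf3, Fgf7 and Fgf10 group, Fgf10 was the abundant member. Fgf10 (ENSMUSG00000021732, chromosome 13, 118669791–118792115, plus strand) signals from mesenchyme to epithelium through the Fgfr2b isoform and is needed for limb, lung and palate outgrowth. It was at 12.9, 16.4 and 22.5 CPM at E10.5, 24.4, 18.9 and 26.2 at E11.5 and 27.3, 30.3 and 29.3 at E12.5. The first 2 stages overlapped, and every E12.5 library lay above every earlier one. From E10.5 to E12.5 it differed by 1.69-fold, with an adjusted p of 0.0321 by edgeR and a log2 fold change (0.75, standard error 0.23) under the fold-change threshold. The changes of its 2 steps, 0.43 (standard error 0.23) and 0.32 (standard error 0.15), did not pass. Without E10.5 replicate 3, in which it was highest among the E10.5 libraries, the first step was 0.67 (adjusted p 0.00425 by edgeR) and the whole span 0.996, still under the threshold.

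Fgf7 (ENSMUSG00000027208, chromosome 2, 126034658–126091185, plus strand), the keratinocyte growth factor, is a mesenchymal ligand for the same epithelial receptor. It had 2, 2 and 7 counts at E10.5, 11, 7 and 4 at E11.5 and 33, 23 and 14 at E12.5, or 0.119, 0.116 and 0.433 CPM, then 0.591, 0.336 and 0.211, then 1.86, 1.24 and 0.834. The E12.5 libraries lay above all earlier ones, and the first 2 stages overlapped. At E12.5 Fgf7 was 3.42-fold above E11.5 (log2 fold change 1.77, standard error 0.48, adjusted p 0.0349 by edgeR). Against E10.5 it was 5.84-fold higher (2.55, standard error 0.60, adjusted p 0.0109 by edgeR), from only 11 counts in all at E10.5. Fgf7 passed the filter on low counts only through the E12.5 libraries, so both calls were set by the filter and their p-values lend no support. The call from E11.5 was lost when E11.5 replicate 2 (adjusted p 0.136 by edgeR), E11.5 replicate 3 (0.14) or E12.5 replicate 1 (0.158) was left out, and when all 9 libraries were fitted together (0.0665). The call from E10.5 was lost without E12.5 replicate 1 (adjusted p 0.0662 by edgeR), and the log2 fold change there was 3.42 without E10.5 replicate 3.

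Fgf3 (ENSMUSG00000031074, chromosome 7, 144838083–144844436, plus strand), known from the inner ear, hindbrain and tooth, was near the limit of what this depth can compare. It had 10, 20 and 16 counts at E10.5, 9, 8 and 11 at E11.5, and 9, 5 and 11 at E12.5. The E11.5 libraries lay at 0.384–0.579 CPM, below the E10.5 libraries at 0.593–1.16 CPM, but the difference did not pass (log2 fold change −0.92, standard error 0.41, adjusted p 0.187 by edgeR). E12.5 overlapped with E10.5, with a log2 fold change of −0.93 (standard error 0.50, adjusted p 0.2 by edgeR). In E12.5 vs. E11.5 it was filtered out.

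Within the Fgf9 subfamily, one member was level and the other rose from near the floor. Fgf9 (ENSMUSG00000021974, chromosome 14, 58070547–58112720, plus strand), a ligand made by epithelia and mesothelia that drives mesenchymal growth, was at 7.24, 9.80 and 18.1 CPM at E10.5, 11.6, 9.90 and 10.6 at E11.5 and 11.3, 8.51 and 10.5 at E12.5. The high value is that of E10.5 replicate 3, the library that stood apart from the other E10.5 libraries. The cause of the high value was not tested. The stages overlapped in all 3 comparisons, and the log2 fold changes were −0.13, −0.085 and −0.20, each within 1 standard error of 0 (0.31, 0.17 and 0.32). Without E10.5 replicate 3 those against E10.5 were 0.33 and 0.26, and were not called either.

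Fgf20 (ENSMUSG00000031603, chromosome 8, 40279166–40308331, minus strand), which is known from the inner ear and from hair and tooth placodes, had 2, 3 and 7 counts at E10.5, 6, 5 and 6 at E11.5 and 21, 17 and 26 at E12.5. These are 0.119, 0.174 and 0.433 CPM, 0.323, 0.240 and 0.316 CPM, and 1.18, 0.915 and 1.55 CPM. The E12.5 libraries lay above all earlier ones. Fgf20 was then 4.07-fold above E11.5 (log2 fold change 2.02, standard error 0.42, adjusted p 0.0113 by edgeR). Against E10.5 it was 4.96-fold higher (2.31, standard error 0.55, adjusted p 0.0114 by edgeR), from 12 counts in all at E10.5. Like Fgf7, it passed the filter on low counts only through the E12.5 libraries, so both calls were set by the filter and their p-values lend no support. The call from E11.5 was lost when E11.5 replicate 2, E11.5 replicate 3 or E12.5 replicate 1 was left out (adjusted p 0.0707, 0.0539 and 0.0515 by edgeR). That from E10.5 was lost without E12.5 replicate 3 (adjusted p 0.0581 by edgeR), and its log2 fold change was 3.0 without E10.5 replicate 3. Micu3 on the opposite strand shares 12.04% of the exon bases of Fgf20. It had 133–208 counts at E10.5 and 173–205 at E12.5.

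Fgf15 (ENSMUSG00000031073, chromosome 7, 144896531–144900953, plus strand), which in the embryo is known from the neural tube and eye, had the steepest fall of the 10 genes. Its libraries were at 7.001, 7.59 and 22.8 CPM at E10.5, 1.67, 1.73 and 1.16 at E11.5 and 0.788, 0.646 and 0.774 at E12.5. The libraries of each stage lay below all those of the stage before, and the highest was again E10.5 replicate 3. It fell 8.16-fold from E10.5 to E11.5 (log2 fold change −3.03, standard error 0.51, adjusted p 0.00937 by edgeR) and 16.7-fold from E10.5 to E12.5 (−4.06, standard error 0.51, adjusted p 2.33e-04 by edgeR). Without E10.5 replicate 3 these were −2.25 and −3.29, and both calls held. The first was lost without E11.5 replicate 1 (adjusted p 0.0651 by edgeR) and without E11.5 replicate 3 (0.0577). From E11.5 to E12.5 the log2 fold change of −1.05 did not pass (standard error 0.34, adjusted p 0.0692 by edgeR), though it did when genes under 10 counts in any library were left out (adjusted p 0.0482 by edgeR). The forebrain and eye field marker sums fell in the first interval too, as did Fgf8 and Fgf18. The part of those tissues in the fall of Fgf15 was not tested. The antisense genes Gm26793 and Gm39119 share 25.7% of its exon bases, and had at most 10 and 5 counts in any library.

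Fgf2 (ENSMUSG00000037225, chromosome 3, 37348346–37410108, plus strand), which leaves cells without a classical signal peptide and is stored in the matrix on heparan sulphate, rose over the whole span. It was at 3.98, 2.67 and 2.35 CPM at E10.5, 13.9, 8.12 and 10.7 at E11.5 and 18.1, 21.9 and 17.6 at E12.5. Each stage lay above the one before without overlap. It rose 3.64-fold in the first interval (log2 fold change 1.86, standard error 0.28, adjusted p 0.00643 by edgeR) and 6.42-fold over the whole span (2.68, standard error 0.26, adjusted p 4.48e-05 by edgeR), and these calls held in every fit that left out 1 library. Without E10.5 replicate 3 the log2 fold changes were 1.72 and 2.54. The second step of 1.76-fold had an adjusted p of 0.0231 by edgeR and a log2 fold change of 0.81 (standard error 0.20), under the fold-change threshold, and was called without E11.5 replicate 1 (1.01). Of its exon bases 13.2% are shared with Nudt6, its antisense neighbour, and Gm43439. Nudt6 had 6–23 counts per library and Gm43439 had none.

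The genes whose log2 CPM followed each ligand most closely over the 9 libraries were taken as a description, with no p-value, since the 9 libraries fall into 3 stages. For Fgf8 these were Car14, Arid3b and Dnmt3b (Pearson's r 0.996, 0.992 and 0.991). For Fgf15, Tfdp1 and AW209491 are given (0.991 and 0.987). For Fgf2, Pcdhb5 and Pgm5 are given (0.995 and 0.993). For Fgf18, with its dip at E11.5, they were Sp9, Efcc1 and Spon1 (0.984, 0.956 and 0.954), of which Sp9 encodes a transcription factor of limb ectoderm and forebrain. For Fgf20 they were Htra4, Tpbg and Bdh2 (0.992, 0.990 and 0.982), for Fgf10 Gm13648, Cdkl2 and Gabra4 (0.987, 0.969 and 0.968), and for Fgf7 Ttc19, B3gnt7 and 1600012H06Rik (0.974, 0.971 and 0.965). They were Ncaph, Gm6430 and BC106179 for Fgf17 (0.947–0.930), and 3 genes each for Fgf9 (Gm5791, Tmem41b and Thoc7, 0.967–0.943) and for Fgf3 (Bckdk, Pld6 and Cpa4, 0.957–0.937).

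Of the other 12 genes of the family, 5 or 6 had enough counts to be tested, and only Fgf11, an intracellular FGF of excitable cells that is not secreted, was called. It rose over the whole span, with a mean of 2.62 CPM in the first stage and 8.87 CPM in the last (log2 fold change 1.77, standard error 0.28, adjusted p 0.00123 by edgeR), with all E12.5 libraries above all E10.5 libraries.

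The receiving side of the pathway was read from a list of 34 genes, made up of 5 receptors, 5 coreceptors, 2 ligand carriers, 7 adaptors, 5 transcriptional targets of ERK and 10 feedback inhibitors. In E11.5 vs. E10.5, 1 of the 31 tested was called, the receptor-binding membrane protein Flrt2, which rose 2.52-fold from 108 to 271 CPM (log2 fold change 1.33, standard error 0.18, adjusted p 0.00372 by edgeR). In E12.5 vs. E11.5, 4 of 32 were called higher and 1 lower. Those higher, given with their mean levels and log2 fold changes, were Fgfbp1, a carrier that frees FGFs from the matrix (0.139 to 1.03 CPM, 2.83, standard error 0.64, from 1, 1 and 6 counts), the immediate early gene Fos (1.52 to 5.29 CPM, 1.80), Flrt1 (3.72 to 8.90 CPM, 1.26) and Fgfr3, a receptor bound by Fgf8, Fgf9 and Fgf18 (9.59 to 21.3 CPM, 1.15, standard error 0.18). Fgfbp1 passed the filter only through the E12.5 libraries, so its call was set by the filter, and its difference over the whole span was 0.55 (adjusted p 0.507 by edgeR). The gene called lower was Il17rd, a feedback inhibitor of FGF receptors, which went from 183 to 91.7 CPM (2.0-fold, standard error 0.18 on the log2 scale). Its log2 fold change, −1 as rounded, lay right at the fold-change threshold, so a small shift would undo the call. In E12.5 vs. E10.5, 4 of 32 were called higher (Flrt1, Fgfr4, Egr1 and Flrt2, log2 fold changes 2.14, 1.55, 1.16 and 1.03, adjusted p 0.00376, 0.0184, 0.0282 and 0.00767 by edgeR) and 1 lower, the ERK phosphatase Dusp4 (39.9 to 15.2 CPM, −1.39, standard error 0.35). Fgfr4 had only 12, 19 and 7 counts at E10.5, against 37, 42 and 38 at E12.5. Its passing of the filter on low counts leaned on the E12.5 libraries, so its p-value lends little support. No adaptor was called in any comparison, and of the 10 feedback inhibitors only Il17rd and Dusp4 were, each in 1 comparison. The ERK targets Etv1, Etv4 and Etv5, transcription factors that are standard readouts of FGF signalling, were under the fold-change threshold and are given because they went the other way from Fos and Egr1. In E12.5 vs. E11.5 their log2 fold changes were −0.75, −0.98 and −0.86 (adjusted p 0.00785, 0.00205 and 0.00246 by edgeR), with every E12.5 library below every E11.5 library. Over the whole span Etv4 was at −0.88 and Etv5 at −0.995 (adjusted p 0.0187 and 0.00256 by edgeR), while Etv1 was at −0.25 and the stages overlapped. Among the feedback inhibitors, Spred2, Spred3 and Dusp6 were then at −0.695, −0.863 and −0.538 (adjusted p 0.0452, 0.0209 and 0.0386 by edgeR). Il17rd was at −0.719 (adjusted p 0.0421 by edgeR), with stages that overlapped. Spry1, Spry2, Spry3, Spry4 and Spred1 were at −0.166, 0.111, −0.0745, −0.0529 and 0.0345, also with stages that overlapped. The receptors Fgfr1, Fgfr2 and Fgfr3 were at 0.91, 0.946 and 0.882 (adjusted p 0.0175, 0.00313 and 0.0254 by edgeR), with every E12.5 library above every E10.5 library. Fgfrl1 was at 0.15, and its stages overlapped. FGF signalling itself was not tested. Of the pathway genes tested, 3.23% were called in the first interval, 15.6% in the second and 15.6% over the whole span, against 6.07%, 5.10% and 15.04% of all genes. The first share is below and the last near that of all genes. The second counts Fgfbp1 and the last counts Fgfr4. The median log2 fold change of the list was 0.087, −0.090 and 0.029 in the 3 comparisons. The number called in E12.5 vs. E11.5 fell from 5 to 2 without E11.5 replicate 2 and to 1 without E12.5 replicate 1, that in E12.5 vs. E10.5 to 2 without E12.5 replicate 1, and the single call between the first 2 stages became 3 without E10.5 replicate 3.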

How the data were processed

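RNA-seq libraries of lambdoidal junction tissue at 3 stages were compared, 3 per stage, grouped by the stage in the labels. HISAT2 (version 2.0.5 in the submitters' processing notes) was used by the authors for mapping to GRCm38/mm10, and they counted reads per gene with featureCounts. The deposited counts are whole reads without normalization. Whether strand was used in counting, and how reads with several positions were treated, is not given in the sources used here. The same table holds FPKM values, group means and the authors' own DESeq2 fold changes and p-values, which were not used.

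The 6 libraries of 2 stages were then fitted together in edgeR 4.0.16 (R 4.3.3): filterByExpr, TMM and the quasi-likelihood test, with Benjamini-Hochberg adjustment over all genes tested. Calls were made at an adjusted p of 0.05 and a log2 fold change of 1 in either direction. The script was tested on simulated data. The size of the log2 fold change over the square root of F gave its standard error. CPM per kb divides by the exon length in the table. For nearest patterns a prior count of 2 went into log2 CPM. Depth limits the precision of low genes, for which the counts are printed. Coordinates matched GENCODE vM21 for all 10 genes, and exon sharing and GC content were taken from that annotation. Promoter windows came from RefSeq (GRCm38.p6), in which 6 of the 10 genes matched.

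The genes named are the 10 ligands, other FGF and pathway genes that were called (at most 4 per direction), and the 3 nearest patterns of each ligand, of which 1 for Fgf2 and 1 for Fgf15 are not reported here. Etv1, Etv4, Etv5, the uncalled receptors and feedback inhibitors set beside them, and genes sharing exons were named after their values were seen. The members and lists were chosen with earlier results of these data known. Alternatives were DESeq2 1.42.0, its size factors, upper quartile normalization, other filters, a fit on all 9 libraries, a replicate block, protein-coding genes only, removal of the GC trend (lowess, span 0.3), glmTreat, no fold-change threshold and leaving out each library. Python 3.11.15 (pandas 2.3.3, matplotlib 3.10.9) made tables and figures.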

Additional observations from a re-analysis of the deposited data

How the results depend on the processing

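Each of the 14 called changes of a ligand was recomputed under the alternatives, 220 values in all. The 14 include the calls of Fgf7 and Fgf20, which were set by the filter on low counts. Of these 196 were called as before, 24 were not and 0 had the other sign, and 5 of the 206 values of the 13 uncalled changes were called. Among the changes tested in the report the sign changed for Fgf9 alone, without E10.5 replicate 3 for both changes against E10.5 and without E12.5 replicate 2 for the other. Its log2 fold change ranged from −0.381 to 0.33 between the first 2 stages when each library was left out, from −0.168 to 0.0216 between the last 2, and from −0.469 to 0.26 over the whole span.

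By glmTreat, which tests against an absolute log2 fold change of 1 and so is stricter by construction, 4 of the 14 changes were called. The counts of ligands higher and lower were then 0 and 0 in the first interval and 1 and 0 in the second, with 1 higher over the whole span, and the pathway genes called were 0, 0 and 1. With no fold-change threshold the pathway genes called were 4, 11 and 15. With at least 10 counts in every library, which removes Fgf7 and Fgf20, the ligands higher at E12.5 were 1 in each comparison, and the pathway genes called in E12.5 vs. E11.5 were 3, as in the fit on all 9 libraries. Leaving out each library gave 1 to 3 ligands lower in the first interval and 1 to 4 higher in the second, and 1 to 3, 1 to 5 and 2 to 6 pathway genes called in the first interval, the second and the whole span. The lowest counts of ligands came without E11.5 replicates 1 and 3 in the first interval and without E11.5 replicates 2 and 3 and E12.5 replicate 1 in the second. The cause was not tested.

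Deviations of same-numbered libraries from their stage means correlated between −0.15 and 0.22, so the numbers were not taken as pairs. With the replicate block all 14 changes were called and 0 further ones, and the pathway genes called in E12.5 vs. E10.5 were 6. The filter on low counts left out Fgf7 and Fgf20 between E10.5 and E11.5 and Fgf3 between E11.5 and E12.5. Where an alternative let them in, none was called, at 0.762 and 0.769 for Fgf7, 0.276 and 0.284 for Fgf20, and −0.185 to 0.257 over 6 alternatives for Fgf3, positive without E12.5 replicate 2.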
